A study of Saccharomyces cerevisiae with 24 samples.

Results

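Adaptive Mutant M1 is 1 of 8 Saccharomyces cerevisiae strains whose RNA was set against a fluorescent reference strain on 2-colour arrays. Its arrays were chosen by the genotype label, which gave 3 arrays of 24 in all, 1 on each of 3 slides. The series concerns strains evolved in the laboratory to tolerate hydrolysates of plant biomass, and its text calls the 3 slides biological replicas. M1 and the mutants PR-438, PR-338 and PR-164 were each hybridised against reference DsRed, a strain named for a red fluorescent protein. Reference YFP served PY-231, and reference GFP served the mutants PG-132, PG-259 and PG-353. All strains were liquid cultures, and the labels name glucose-free YNB minimal medium and biomass hydrolysate at 1 g/mL without stating if a culture had both. Nor do they state if a mutant is a single clone, or what mating type or ploidy any strain has. M1 carried Cy5 on slides 1 and 3 and Cy3 on slide 2. Its place within a slide was fixed (column 4, row 2), which means that place and strain cannot be told apart.

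Values are log2 ratios of M1 over the DsRed reference with the median of each array's named probes at 0, so every value is relative to the other genes of that array. A value of 1 is a doubling. Each gene is the mean of its spots. The labels leave unstated which strain is on top of the ratio on slide 2. M1 was taken as the numerator throughout. This is likely because the deposited array medians were 2.44 to 5.41 on slide 2, where the dyes were exchanged, and 0.22 to 1.41 on slides 1 and 3, and because mating genes of M1 then have the same direction on slides 2 and 3. Both observations were made after the values were seen, and the second uses genes described below, so their agreement between slides 2 and 3 is no separate result. Values with slide 2 turned stand beside those genes. In the reading chosen, M1 replicates 1 and 2 correlated at -0.49 across genes. Cytosolic ribosomal protein genes had medians of 1.38 and -2.71 on these 2 arrays. With slide 2 turned, that correlation would be above 0 and those medians would share a sign, so the choice is not settled. The M1 arrays held 15719, 15701 and 15713 spots with a value on replicates 1, 2 and 3, and 4069 named genes were tested.

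The array labelled M1 replicate 1 stood apart from M1 replicates 2 and 3. It lacked the mating-type differences of the other M1 arrays, and across 4060 genes it correlated at 0.80 with PR-164 replicate 1, its neighbour on the same slide. Its correlation with M1 replicate 2 was -0.49 and that with M1 replicate 3 was 0.23. M1 replicate 2 correlated at 0.83 with PR-338 replicate 2, at 0.82 with PR-164 replicate 2 and at -0.01 with M1 replicate 3. These are descriptions across genes that share spots, slide and reference. Results are therefore given with M1 replicate 1 and without it. Since this array was set aside for its mating genes, calls of mating genes without it are a description and not independent support.

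Haploid budding yeast comes in the mating types a and alpha, and the MAT locus decides which. An a cell makes a-factor and the receptor for alpha-factor, while an alpha cell makes alpha-factor and the receptor for a-factor, and each pheromone reaches the same kinase cascade in the partner. Silent copies of both kinds of MAT information lie at HML and HMR, so the probes for them can detect each other's RNA.

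The genes that mark a cells were high in M1 on replicates 2 and 3 and not on replicate 1, where all 7 measured lay between -1.32 and 0.07. MFA2, which encodes a-factor, had 0.07, 6.76 and 6.26 on M1 replicates 1, 2 and 3, against a lowest value of -2.21, a median of 0.30 and a highest value of 0.81 on the 9 arrays of the PR mutants. M1 replicates 2 and 3 lay above all 9 PR arrays, and M1 replicate 1 lay among them. Over the 3 arrays MFA2 rose by 4.45 ± 0.77 (SE of the fit, n = 3 arrays, limma adjusted p = 0.0147). Here and below, the SE of the fit rests on a spread pooled over all mutants of the series. Neither it nor the p measures the spread among the M1 arrays alone. The SD of the M1 arrays was 3.7 for MFA2, 2.5 for STE2, 2.2 for BAR1 and 3.7 for STE3. In RNA of whole cultures, fewer cells of a type and less RNA per cell cannot be told apart.

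STE2, the receptor for alpha-factor, had -0.24, 3.92 and 4.29 on M1 replicates 1, 2 and 3, against -0.52 to 0.89 on the PR arrays. It rose by 2.71 ± 0.51 (limma adjusted p = 0.0215). BAR1, the secreted protease that degrades alpha-factor, had 0.06, 3.78 and 4.10 on the same arrays, against -0.84 to 0.36 in the PR mutants. BAR1 rose by 2.77 ± 0.43 (limma adjusted p = 0.00758), and as for MFA2 and STE2 its M1 replicate 1 value lay within the PR range while the other M1 arrays lay above it. MFA2, BAR1 and STE2 were 3 of the 4 genes called higher in M1, where 0.0983% of the genes tested were called higher. With slide 2 turned, MFA2 was at -0.34, STE2 at -0.11 and BAR1 at 0.02, and they did not pass (adjusted p = 0.901, 0.948 and 0.99).

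The other 4 of the 7 measured a-cell genes did not pass. MFA1, the second a-factor gene, had -0.23, 2.84 and 3.63 on M1 replicates 1, 2 and 3 (adjusted p = 0.0735), and its sequence is close enough to MFA2 that the probes may share signal. STE6, the exporter of a-factor, had -0.68, 2.44 and 1.37. AGA2, the binding subunit of a-agglutinin, had -1.32, 3.83 and 5.35. On M1 replicates 2 and 3 AGA2 rested on 1 spot, since the other had a ratio below 0 of -7.07 and -44.3 in the deposited table. ASG7, an a-specific gene that acts in the pheromone response of mated cells, had -0.997, 2.72 and 5.39, and its 2 spots on replicate 3 were far apart at 2.65 and 8.14. The median over the 7 a-cell genes was -0.24, 3.78 and 4.29 on M1 replicates 1, 2 and 3, against -0.52 to 0.20 on each of the other 21 arrays of the series.

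Alpha-cell genes had the opposite direction on the same arrays. STE3, the receptor for a-factor, had 0.56, -6.13 and -5.71 on M1 replicates 1, 2 and 3, against -0.70 to 0.32 on the 9 PR arrays. M1 replicates 2 and 3 lay below every PR array and M1 replicate 1 lay above all of them. STE3 fell by 3.81 ± 0.74 (limma adjusted p = 0.0309) and was 1 of the 6 genes called lower, or 0.147% of the genes tested. With slide 2 turned it was at 0.45 (adjusted p = 0.854). With only the arrays that share the DsRed reference, BAR1, MFA2, STE2 and STE3 kept their direction and did not pass (adjusted p = 0.0697, 0.112, 0.139 and 0.13). Without M1 replicate 2 only BAR1 of these 4 passed, and without M1 replicate 3 none did.

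MF(ALPHA)1, the main alpha-factor gene, had 2.21, -6.25 and -6.19 on M1 replicates 1, 2 and 3, against a lowest value of -3.31, a median of -0.33 and a highest value of 2.17 on the PR arrays. Its fitted value was -4.03 ± 0.98 (limma adjusted p = 0.0806), so it did not pass. MF(ALPHA)2, the minor alpha-factor gene, had 0.54, -2.98 and -6.80 in M1 and was below 0 on all 9 PR arrays too, at -3.49 to -0.97. On M1 replicate 3 it rested on 1 spot, since the other had a deposited ratio of -0.00308. SAG1, the alpha-agglutinin gene, had -0.39, -1.10 and -0.48 in M1, inside the PR range of -1.35 to -0.12. AFB1, the a-factor barrier gene and the fifth alpha-cell gene listed, was not among the named probes. The median over the 4 measured alpha-cell genes was 0.55, -4.56 and -5.95 on M1 replicates 1, 2 and 3, against -1.44 to 1.02 on the other 21 arrays.

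**Figure D1:**
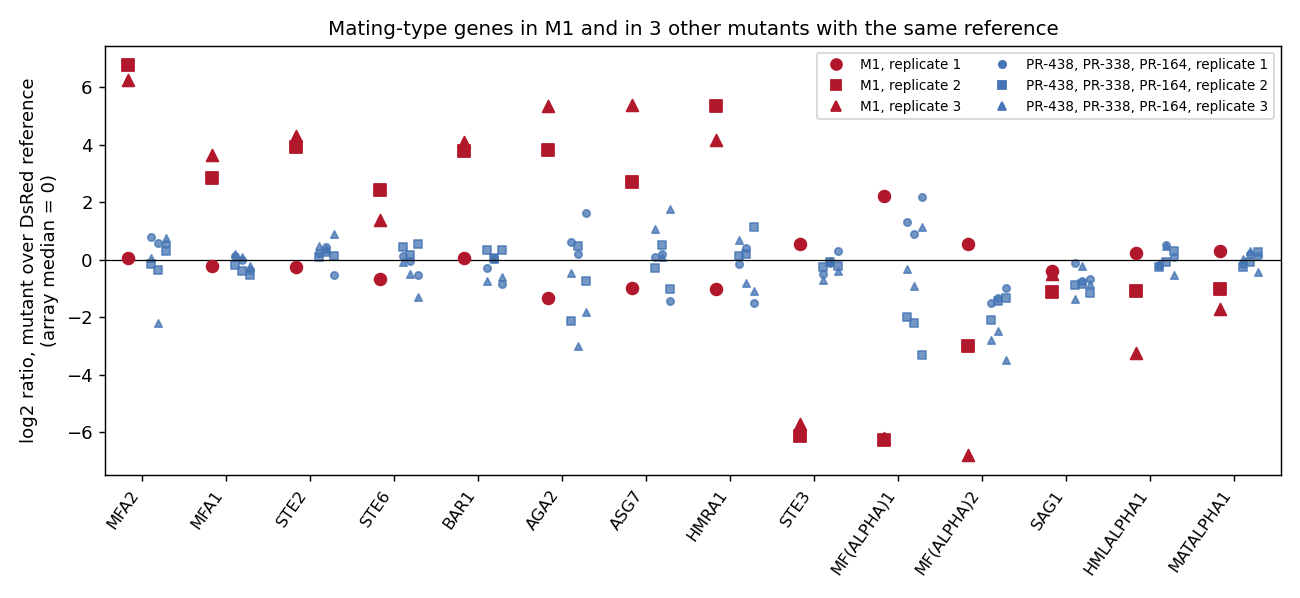
Log2 ratio over the DsRed reference (array median at 0) for 14 mating-type genes, with each M1 array as a large red symbol and each array of PR-438, PR-338 and PR-164 as a small blue one (circle, replicate 1; square, replicate 2; triangle, replicate 3). MFA2 sits at 6.76 and 6.26 and STE3 at -6.13 and -5.71 on M1 replicates 2 and 3, while M1 replicate 1 lies at 0.07 for MFA2 and 0.56 for STE3.

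Genes of the mating-type loci other than HMRA2 had the matching pattern, and all are named here after their values were seen. HMRA1, the silent copy that carries a information, had -0.997, 5.35 and 4.16 on M1 replicates 1, 2 and 3, against -1.49 to 1.14 on the PR arrays. HMLALPHA1, the silent copy of the activator of alpha genes, had 0.24, -1.09 and -3.24, and MATALPHA1, the copy at MAT, had 0.32, -1.03 and -1.72. The probes for HMLALPHA1 and MATALPHA1 share sequence, as do those for HMLALPHA2, MATALPHA2 and HMRA2, so which locus the RNA came from is uncertain. HMLALPHA2 had 0.21, -1.07 and -1.06, and MATALPHA2 had 0.41, -1.18 and -0.95. HMRA2, which lies at HMR like HMRA1, had 0.23, -1.13 and -1.14, so its direction was opposite to that of HMRA1. In the fit with all arrays HMRA1 was at 3.08 ± 0.73 (adjusted p = 0.0806) and HMLALPHA1 at -1.35 ± 0.38 (adjusted p = 0.107), and neither passed.

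Without M1 replicate 1, limma called 16 genes (0.393% of those tested), 9 higher (0.221%) and 7 lower (0.172%), and 13 of the 16 were mating-type genes. With 2 arrays left, as with all 3, M1 is assumed to vary like the other mutants. Dropping the array that lacked the mating-type differences favours calls of these genes. All 7 a-cell genes then passed, with MFA2 at 6.51, STE2 at 4.11, BAR1 at 3.94 and STE6 at 1.91 (adjusted p = 0.00104 for STE6). STE3 was then at -5.92, MF(ALPHA)1 at -6.22 (adjusted p = 0.000295) and MF(ALPHA)2 at -4.89 (adjusted p = 0.00252). HMRA1 at 4.75, HMLALPHA1 at -2.16 and MATALPHA1 at -1.37 passed as well. The 3 called genes outside this group were FKS1 at -1.27, PAB1 at -1.40 and REC104, a meiotic recombination gene, at 1.91. REC104 rested on M1 replicate 3, with -0.46, 0.54 and 3.27 on replicates 1, 2 and 3, and is named after its values were seen.

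On M1 replicates 2 and 3 together, 8 genes lay above 2, or 0.197% of 4066, and 3 lay below -2, or 0.0738%. All of these but SEO1 were mating-type genes. SEO1, a putative permease, had -0.01, 3.23 and 3.49 on M1 replicates 1, 2 and 3, against -0.49 to 2.27 on the PR arrays, and is named after its values were seen. Arrays with the other references reached 4.015 for SEO1, above every M1 array, so such high values were not particular to M1. By the same rule the other 7 mutants had 0 genes above 2, and 1 gene below -2 in PR-438 was the only one below. The limit of 2 was also set after the values were seen.

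**Figure D2:**
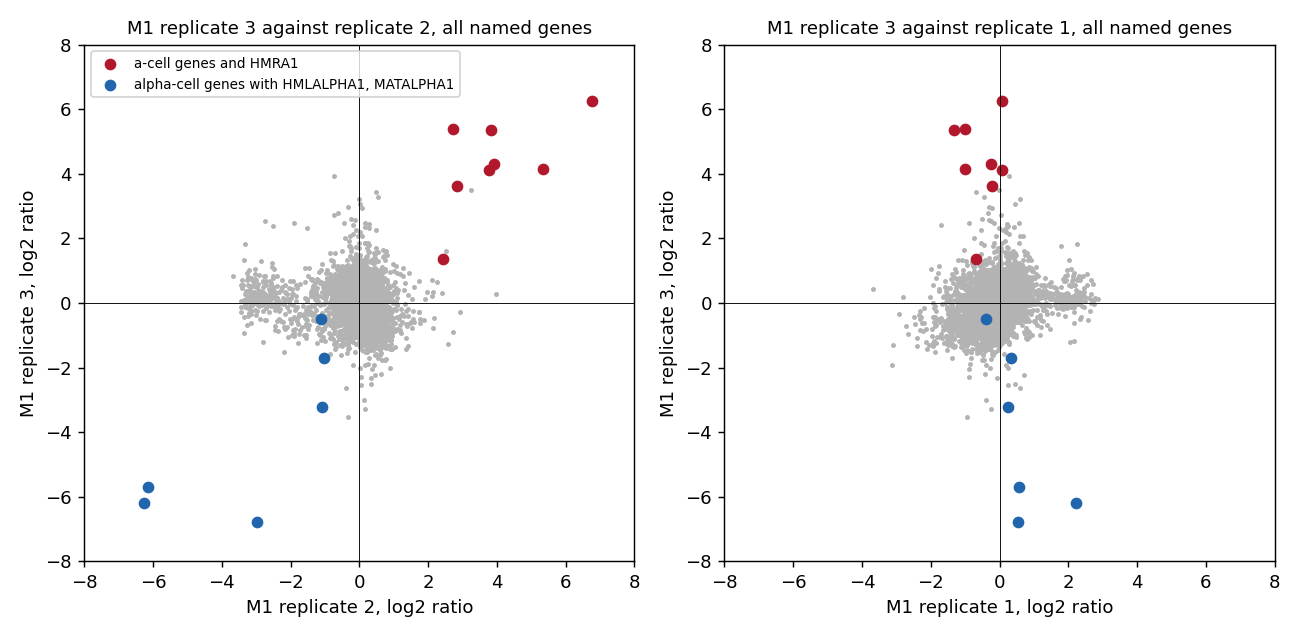
Log2 ratio of every named gene (grey) on M1 replicate 3 (vertical axis) against M1 replicate 2 (left) and against M1 replicate 1 (right). The a-cell genes with HMRA1 (red) and the alpha-cell genes with HMLALPHA1 and MATALPHA1 (blue) fall mostly in opposite corners on the left, except SAG1 at -1.10 and -0.48, and spread along the vertical axis on the right, and across all genes the correlation is -0.01 on the left and 0.23 on the right.

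The pheromone response machinery that both haploid types share was near the array median in M1. All 34 listed genes were measured and 0 were called by limma, which at a background of 0.246% says little, and 1 had an unadjusted p under 0.05, against 14.4% of all genes tested. Their median was 0.02 in M1, and -0.03 over all genes tested. STE4, the beta subunit of the pheromone G protein, had 0.48, -0.04 and 0.44 on M1 replicates 1, 2 and 3. GPA1, the alpha subunit, had -0.50, 0.65 and -0.40. FUS1, a cell fusion gene induced by pheromone, had -0.59, 0.63 and -0.48, and SST2, which damps the pheromone signal, had 0.69, -0.29 and 0.55. STE12, the transcription factor at the end of the cascade, had -0.55, -0.09 and 1.52. The fitted values of the 34 genes ran from -0.33 for FIG2, a cell adhesion protein, to 0.39 for DIG2, an inhibitor of STE12.

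Of the 10 genes called in M1, 0.246% of those tested (21 with the slide as a replicate block), 6 lay outside the mating group. YPT32, a Rab GTPase of the late Golgi, was the fourth gene called higher. It had 1.13, 0.50 and 0.39 on M1 replicates 1, 2 and 3, against -0.32 to 0.23 on the PR arrays, so these groups did not overlap. Arrays with the other references reached 0.41, above M1 replicate 3. How many of all genes separate M1 from the PR arrays in this way was not counted. YPT32 rose by 0.69 ± 0.14 (limma adjusted p = 0.0488). On replicate 1 its 2 spots were at 2.15 and 0.11, and without M1 replicate 1 it was at 0.44 (adjusted p = 0.277). Of the 20 measured genes for Rab GTPases and vesicle traffic it was the only one called.

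The other 5 called genes were lower in M1, and lowest on replicate 2. PAB1, the poly(A)-binding protein of mRNA tails, had -0.99, -2.22 and -0.58 on M1 replicates 1, 2 and 3, against -0.79 to -0.40 on slide 1, -2.26 to -2.17 on slide 2 and -1.06 to -0.24 on slide 3 in the PR mutants. PAB1 fell by 1.56 ± 0.24 (adjusted p = 0.00758), and on slides 2 and 3 its M1 value lay within the PR range. FAS2, a subunit of fatty acid synthase, had -1.28, -1.95 and -0.51 in M1 and fell by 1.57 ± 0.27 (adjusted p = 0.0147). TIR1, a mannoprotein of the cold and low-oxygen response, had -1.40, -3.36 and -0.93 and fell by 2.20 ± 0.40 (adjusted p = 0.0197).

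FKS1, a catalytic subunit of the glucan synthase that builds the cell wall, had -0.25, -2.03 and -0.50 on M1 replicates 1, 2 and 3 and fell by 1.23 ± 0.22 (adjusted p = 0.0147). AGP1, a broad amino acid permease, had 0.41, -2.20 and -0.03 and fell by 1.08 ± 0.22 (adjusted p = 0.0493). Without M1 replicate 2 AGP1 was at -1.25 and still passed (limma adjusted p = 0.0497). That value leans on the dye term, which the slide 2 arrays of the other mutants then set. With a replicate block FKS1 was at -0.93 (adjusted p = 0.0658) and AGP1 at -0.61 (adjusted p = 0.19), and both calls were lost. Without replicate 2 of every mutant AGP1 was at 0.19 (adjusted p = 0.685), and none of the 5 genes passed. On slide 2 all 5 were at -3.36 to -1.95 in M1, against -3.06 to -1.73 in the PR mutants. Their difference from the mean of the PR mutants was -0.53 to -0.02 (adjusted p = 0.653 to 0.996). After a loess on brightness PAB1 was at -0.91, FAS2 at -1.01, FKS1 at -0.59 and AGP1 at -0.50, and these 4 did not pass (adjusted p = 0.182, 0.196, 0.352 and 0.533). Arrays with the other references reached values as low, down to -3.02 for FAS2 and -3.09 for AGP1. Where M1 and the PR mutants fall alike, a property of the DsRed strain itself cannot be told apart from a change in the mutants. Nor was a pattern of slide 2 or of its exchanged dyes tested.

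**Figure D3:**
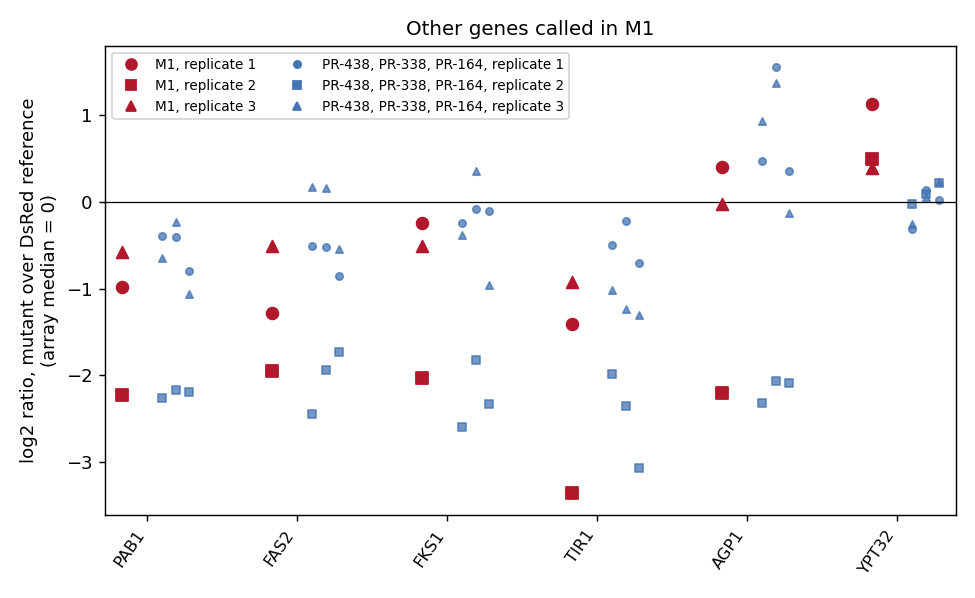
Log2 ratio over the DsRed reference (array median at 0) for the 6 called genes outside the mating group, with M1 arrays in red and PR arrays in blue, and circle, square and triangle for replicates 1, 2 and 3. PAB1, FAS2, FKS1, TIR1 and AGP1 are low on replicate 2 in M1 (-3.36 to -1.95) and in the PR mutants (-3.06 to -1.73), while all 3 YPT32 values of M1 (0.39 to 1.13) lie above the PR arrays.

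Setting M1 against the mean of PR-438, PR-338 and PR-164 takes out what the DsRed reference carries. In this difference limma called 0 of 4069 genes (0%), with 367 at an unadjusted p under 0.05. BAR1 came closest, at 2.83 ± 0.49 (adjusted p = 0.0648), followed by MFA2 at 4.33 ± 0.88 (adjusted p = 0.193). STE3 was at -3.54 ± 0.85 and STE2 at 2.38 ± 0.58 (adjusted p = 0.365 for both). Within slides, the difference of BAR1 was 0.42, 3.53 and 4.53 on slides 1, 2 and 3. Without M1 replicate 1, 12 genes passed, or 0.295%, 8 higher and 4 lower. All 12 were mating-type genes, which the choice of the array left out favours, with MFA1, MFA2, STE2, STE6, BAR1, AGA2, ASG7 and HMRA1 higher and STE3, MF(ALPHA)1, HMLALPHA1 and MATALPHA1 lower. MF(ALPHA)2, low in the PR mutants as well, was not among them.

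Genes for making ribosomes lay slightly above the array median in M1. Ribosome biogenesis factors process and assemble ribosomal RNA in the nucleolus, and 84 of the 93 measured were above 0, against 46.4% of all genes tested. Their median was 0.28, and 0.01, 0.63 and 0.18 on M1 replicates 1, 2 and 3, while the PR mean had -0.23, 0.08 and -0.34 on slides 1, 2 and 3. No member passed the test by limma, where 0.246% of all genes did. Of the 93, 12 had an unadjusted p under 0.05, a share below the 14.4% of all genes. The fitted medians of PR-438, PR-338 and PR-164 were -0.34, 0.06 and -0.17. The within-slide difference from the PR mean had a median of 0.24, 0.50 and 0.54 on slides 1, 2 and 3, and 61 of the 93 were above 0 on all 3 slides, against 14.8% of all genes. The fitted difference was above 0 for 89 of the 93, against 46.3% of all genes. The median difference was 0.43 with all arrays, 0.53 without M1 replicate 1 and 0.27 without M1 replicate 2. The M1 median was 0.11 without M1 replicate 2 and 0.15 without replicate 2 of every mutant.

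NOG1, a GTPase of the large ribosomal subunit's assembly, had 0.47, 0.75 and 1.48 on M1 replicates 1, 2 and 3, against -0.94 to 0.78 on the PR arrays (adjusted p = 0.24). PUF6, a nucleolar RNA-binding protein, had 0.36, 0.88 and 0.95 in M1, against -0.76 to 0.95 (adjusted p = 0.22). The ranges of M1 and the PR mutants overlapped for both genes. GAR1, a subunit of the particles that modify ribosomal RNA, went the other way with 0.22, -1.88 and -0.80 (adjusted p = 0.151). Subunits of RNA polymerases I and III, which transcribe ribosomal and transfer RNA, had a similar small displacement. Of the 20 measured, 19 were above 0, against 46.4% of all genes tested, and the median was 0.29. By limma 0 of the 20 were called, which at a background of 0.246% says little. RPA43, a subunit of polymerase I, had 0.32, 0.35 and 0.73 in M1, and RET1, the second-largest subunit of polymerase III, had 0.34, 0.40 and 0.47.

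Genes of storage carbohydrates lay below the array median. Trehalose and glycogen are the glucose reserves that yeast builds when growth slows or stress comes. Of 10 trehalose genes 9 were below 0, with a median of -0.47, and of 14 glycogen genes 10 were, with a median of -0.47, against 53.6% of all genes tested. By limma 0 members of either list were called, where 0.246% of all genes were. An unadjusted p under 0.05 was reached by 5 trehalose and 2 glycogen genes, and by 14.4% of all genes. On M1 replicate 3 trehalose genes had a median of -0.06, with 5 of 10 above 0. TPS2, which makes trehalose from its phosphate, had -0.31, -0.99 and -0.54 on M1 replicates 1, 2 and 3, against a lowest value of -0.57, a median of 0.08 and a highest value of 0.98 on the PR arrays (adjusted p = 0.21). TSL1, a regulatory subunit of the same complex, had -0.94, -1.0 and -0.40, against -1.22 to 1.10. Both overlapped the PR arrays. PGM2, the phosphoglucomutase that feeds both reserves, had -1.11, -1.56 and -0.70 (adjusted p = 0.203).

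GSY1, a glycogen synthase, had -0.18, -0.42 and -0.81 on M1 replicates 1, 2 and 3 (adjusted p = 0.169), and GSY2, the main one, had -0.34, -1.56 and -1.09 (adjusted p = 0.158). GPH1, which degrades glycogen, had -0.21, -0.60 and -1.12. Genes of synthesis and of breakdown both lay below 0. The within-slide difference from the PR mean had a median of -0.56, -0.28 and -0.46 for trehalose genes and -0.76, -0.06 and -1.01 for glycogen genes on slides 1, 2 and 3. The fitted difference was below 0 for 9 of 10 trehalose and 12 of 14 glycogen genes, against 53.7% of all genes. It was below 0 on all 3 slides for 7 genes of each list, against 17.2% of all genes. The median difference was -0.34 for trehalose and -0.62 for glycogen with all arrays, -0.27 and -0.55 without M1 replicate 1, and -0.37 for both without M1 replicate 3. The M1 median of trehalose genes was -0.14 without replicate 2 of every mutant and -0.29 after a loess on brightness. The PR mutants differed among themselves. PR-438, PR-338 and PR-164 had fitted medians of 0.23, -0.28 and -0.08 for trehalose and 0.44, -0.04 and 0.06 for glycogen, so PR-438 was the highest in both lists. With the sign of slide 2 turned, the M1 median was 0.08 for trehalose, -0.09 for glycogen and -0.06 for ribosome biogenesis.

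**Figure D4:**
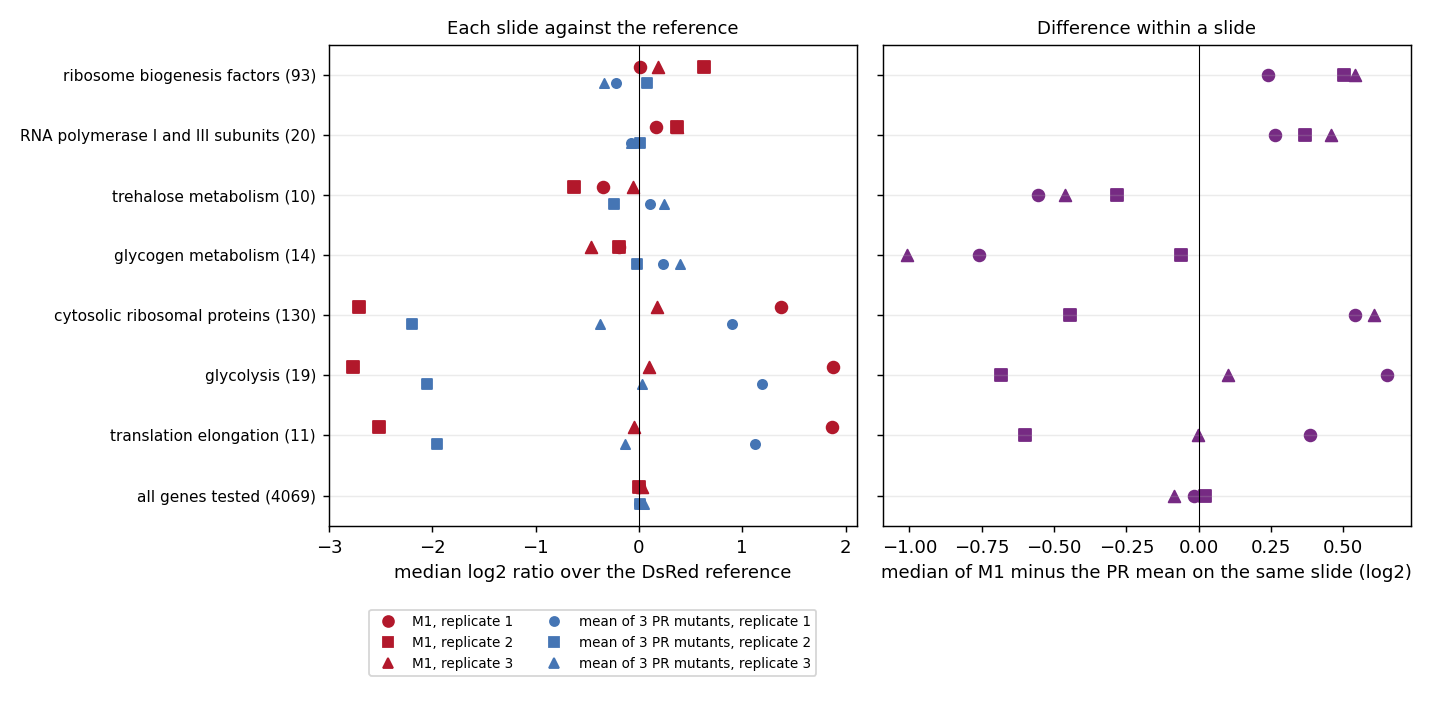
Median log2 ratio of 7 gene groups and of all genes tested on each slide, for M1 (red, upper symbol) and the mean of the 3 PR mutants (blue, lower symbol) on the left, and the median within-slide difference, M1 minus the PR mean, on the right (circle, square and triangle for replicates 1, 2 and 3; number of genes in brackets). Ribosome biogenesis differences are above 0 on each slide (0.24, 0.50 and 0.54) and trehalose differences below it (-0.56, -0.28 and -0.46), while cytosolic ribosomal proteins lie at 1.38, -2.71 and 0.17 on M1 replicates 1, 2 and 3.

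Groups of highly expressed genes had large values on slides 1 and 2 in M1 and the PR mutants alike. The 130 cytosolic ribosomal protein genes had a median of 1.38, -2.71 and 0.17 on M1 replicates 1, 2 and 3. The PR mean had 0.90, -2.20 and -0.38 on the same slides. Of the 130, 0 were called, at a background of 0.246% of all genes tested. RPL3, a protein of the large subunit, had 0.61, -3.21 and -0.15 in M1. The 19 glycolysis genes had 1.88, -2.77 and 0.10, with TDH1, a glyceraldehyde-3-phosphate dehydrogenase, at 1.09, -3.28 and -0.69. The 11 translation elongation genes had 1.87, -2.52 and -0.04. After a loess on brightness the fitted M1 median was -0.03 for ribosomal proteins and 0.01 for glycolysis, against -0.80 and -0.63 without it. No direction is given for these groups, since slides 1 and 2 had opposite signs.

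Groups linked to life in hydrolysate had medians near that of all genes in M1. They held 0 called genes, which lists of 15 to 28 genes would mostly do at a background of 0.246%. Furan and aldehyde reductases, which detoxify hydrolysate aldehydes, had a median of -0.08 over 15 measured genes. OYE2, an NADPH oxidoreductase, had 0.41, -2.77 and -0.03 on M1 replicates 1, 2 and 3, and AAD6, of the aryl-alcohol dehydrogenase family, had 0.19, 0.27 and 0.20. Weak acid and drug efflux genes had a median of -0.03 over 26, with PDR5, a multidrug pump, at -0.29, -1.67 and -0.37. Oxidative stress defence genes had -0.12 over 25 and general stress genes -0.12 over 28. HSP26, a small heat shock protein, had 0.02, -1.55 and -0.98. For general stress genes the fitted difference from the PR mean was below 0 for 23 of 28, against 53.7% of all genes. The within-slide difference had a median of -0.51, 0.21 and -0.88 on slides 1, 2 and 3, so slide 2 went the other way. It was below 0 on all 3 slides for 4 of the 28, against 17.2% of all genes.

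Sugar genes did not pass either. Hexose transporters had a median of -0.27 over 19 genes, with HXT5, which serves slow growth, at -1.08, -0.40 and -0.82 on M1 replicates 1, 2 and 3 (adjusted p = 0.131). The galactose enzymes swung between slides. GAL1, galactokinase, had -0.26, -2.73 and 2.54 in M1, and 3.79 in PR-164 replicate 3. GAL10, the epimerase, had 0.25, -2.50 and 2.38. ZWF1, the entry enzyme of the pentose phosphate pathway, had -2.15, -0.68 and -1.21 in M1, against -1.62 to 1.59 on the PR arrays, and its fitted value of -1.48 ± 0.45 did not pass (adjusted p = 0.142).

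Over all genes, 918 of 4064 had the same sign on all 3 M1 arrays, which was 22.6%, with 491 above 0 (12.1%) and 427 below 0 (10.5%). Among these the highest fitted values beyond MFA2 and BAR1 included STR3, a cystathionine beta-lyase, with 0.50, 3.97 and 0.29, which rested on replicate 2. SUL1, a sulfate permease, had 0.03, 2.53 and 1.61, all inside the PR range of -0.29 to 3.70. CDC45, a DNA replication factor, had 0.75, 0.81 and 1.47 on M1 replicates 1, 2 and 3, against -1.06 to 0.51 on the PR arrays, with no overlap. Arrays with the other references reached 0.75, as high as M1 replicate 1. For CDC45 too, the share of all genes separated from the PR arrays in this way was not counted. The fitted value of CDC45 was 1.07 ± 0.26 (limma adjusted p = 0.0827).

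The lowest values of 1 sign began with HSP150, a secreted cell wall protein, at -2.33, -2.98 and -0.25, and TIR1. WHI5, which holds back the start of the cell cycle, had -3.11, -0.19 and -1.93 on M1 replicates 1, 2 and 3 (adjusted p = 0.083). URA3, of uracil synthesis and a common marker gene, had -0.83, -2.19 and -1.52, against -2.72 to 0.56 on the PR arrays. HSP150, WHI5 and URA3 did not pass, and each overlapped the PR mutants. The PR arrays ran from -3.21 to 1.18 for HSP150 and from -2.43 to 0.57 for WHI5.

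A few more genes are named after their values were seen. CLB6, an S-phase cyclin, had 0.64, 0.77 and 0.68 on M1 replicates 1, 2 and 3, against -0.78 to 0.09 on the PR arrays, and was alike on all 3 slides. M1 did not overlap the PR mutants, its difference from them was 0.79, 0.84 and 1.24 on slides 1, 2 and 3, and that difference did not pass (0.96 ± 0.24, limma adjusted p = 0.365). The share of all genes with no such overlap was not counted. CLB5, the paired S-phase cyclin, had 0.10, 0.54 and 0.20 in M1, against -0.67 to 0.20. AAD3, of the aryl-alcohol dehydrogenase family, had -0.91, 0.01 and 0.13 in M1. For PR-438 the values were -0.22, -0.50 and -0.09, so M1 did not stand apart from every PR mutant. Lower than both on each slide were PR-338, at -2.46, -1.71 and -3.48, and PR-164, at -2.19, -1.54 and -1.27. By chromosome, the median fitted value of M1 was -0.14 to 0.01 over the 16 nuclear chromosomes.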

How the data were processed

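Total RNA was reverse transcribed and 5 µg of cDNA per sample was labelled with Cy3 or Cy5, per the labels' protocols. The deposited values are a linear ratio of both channels per spot for 24 arrays and 15744 probes, with no scaling between channels or arrays. The unit was inferred from the values themselves. Of named spots above 0, 84.3%, 86.8% and 88.5% on M1 replicates 1, 2 and 3 were quotients of whole numbers with denominators up to 10000. Values fall at or below 0 where a channel was under background (4.17% to 5.83% of spots on the M1 arrays). Brightness for the loess was not measured. It was rebuilt from these quotients and averaged over arrays, and spots above 0 without a quotient were given a fixed value. Scanner software settings, background correction and filters used by the authors are not given in the sources used here. Arrays, not sequencing depth, limit the precision.

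Values at or below 0 were left out, log2 was taken and the median over named probes was subtracted per array. Of the probes, 8152 carried 1 gene symbol and 7592 none. Old symbols were brought to current ones (125 through a synonym, 4 unmatched, 4 kept as in the platform annotation), which gave 4069 genes, 4036 of them on all arrays. Gene values are means of spots. The correlation between the 2 spots of a gene was 0.762, 0.927 and 0.527 on M1 replicates 1, 2 and 3, and -0.01 on PY-231 replicate 1, which stayed in the fit.

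limma 3.58.1 in R 4.3.3 (lmFit, eBayes) fitted 1 coefficient per mutant and a dye term over all 24 arrays. M1 was tested against 0 and against the mean of the PR mutants, with Benjamini-Hochberg adjustment over all genes and a call at 0.05. A test of ratios against 0 omits how much reference cultures vary. Since only slide 2 had its mutants in Cy3, the dye term absorbs what that slide's arrays share, and the SE does not hold the gap between slide 2 and the rest. The fit was also run on simulated data with independent noise on each array. That setting leaves out what arrays of a slide share, so it lends the calls no support. Python 3.11.15 with pandas 2.3.3, numpy 2.4.6, statsmodels 0.14.6 and matplotlib 3.10.9 and the R package data.table (version 1.17.8) served for data handling, loess and plots.

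A replicate number is a slide, per the labels' titles, so numbers pair arrays. Deviations of M1 arrays from the M1 mean correlated with those of PR arrays of the same number at 0.17 to 0.88 (9 pairs) and at -0.72 to 0.22 for other numbers (18 pairs). With a replicate block limma called 21 genes in M1, against 10 without it. The labels do not say whether the slides had separate cultures beyond the series' word for them.

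Named were the called genes, the 10 highest and 10 lowest of 1 sign on all M1 arrays, the mating lists and up to 4 members of each other list. Not all are printed. The M1 arrays, the comparison and the lists were chosen with earlier results of these data known. Lists are described by counts and medians, with no test of their own. Alternatives covered direction, blocks, arrays left out, normalization, probe summary, filters and weights.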

Additional observations from a re-analysis of the deposited data

Results flagged for a closer look

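GPP2, a glycerol-3-phosphatase, was above 0 on every M1 array, at 0.56, 0.07 and 0.05 on replicates 1, 2 and 3, and below 0 on every one of the 9 arrays of PR-438, PR-338 and PR-164, at -0.49 to -0.05. The difference, M1 minus the PR mean, was 0.50 and did not pass by limma (adjusted p = 0.402). The share of all genes that separate M1 from the PR arrays in this way was not counted.

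Probes with no gene symbol took no part in the comparisons. Of these 7592 probes, 24 lay below -2 on M1 replicates 2 and 3 together, against 0 to 13 in each of the other 7 mutants. Above 2 there were 2 in M1, against 1 to 11 in the others. The limit was set after the values were seen, and what these probes detect was not tested.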

How the results depend on the processing

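Of the 10 genes called in M1, the number also called in the same direction was 10 with the median of the probes, 8 with a replicate block, 8 with a random block, 8 without PY-231 replicate 1 and 6 without M1 replicate 1. It was 5 after the loess on brightness (BAR1, MFA2, STE2, STE3 and TIR1) and 0 without M1 replicate 3, without replicate 2, without a dye term or with slide 2 turned. BAR1 and PAB1 were the 2 called with array weights. With the DsRed arrays only, 4 were called (FAS2, FKS1, PAB1 and TIR1) and the 4 mating genes were lost. Setting values at or below 0 to the lowest value lost BAR1, MFA2, STE2 and AGP1, and scaling arrays to 1 spread left BAR1, MFA2 and STE2. The replicate block lost AGP1 and FKS1.

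The count of called genes, 10 in M1, moved to 473 with slide 2 turned (301 higher, 172 lower), 21 with a replicate block, 18 with the DsRed arrays only, 5 after the loess, 3 with arrays scaled to 1 spread, 5 among genes with 2 probes on every array, 0 without a dye term (410 at an unadjusted p under 0.05 by limma) and 2 with array weights. A replicate block together with leaving out M1 replicate 1, added once the data had been seen, gave 17 called genes in M1 and 12 in the difference from the PR mutants. Leaving out 1 replicate gave 0 to 106 called genes in M1, and 0 to 12 in the difference, where all arrays gave 0. The 0 came without M1 replicate 3 (384 at an unadjusted p under 0.05) and the 106 without replicate 2 of every mutant. In that difference 1 gene was called after the loess (BAR1), and 1 with values at or below 0 set to the lowest value, which also puts spots low whose reference channel was under background. With a replicate block the difference stayed at 0 called genes.

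With slide 2 turned, 8 of the 10 changed sign, to 1.12 for AGP1, 0.46 for FAS2, 0.77 for FKS1, -0.34 for MFA2, 0.65 for PAB1, -0.11 for STE2, 0.45 for STE3 and 0.82 for TIR1. Leaving out 1 replicate moved AGP1 between -1.25 (without M1 replicate 2) and 0.19 (without replicate 2). The cause of these moves was not tested, beyond fewer arrays or genes where an alternative has them. Signal over background limits single spots, as for AGA2, ASG7 and MF(ALPHA)2.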
